A study of Mus musculus with 16 samples.

Results

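Transcript levels in aortas exposed to norethisterone acetate (NET-A), a progestin of the nortestosterone class, were compared with those of the placebo group of the same experiment, called N placebo in the labels, 4 samples against 4 of the 16 in the series. The members are the probes without control function that the scanner software marked as well above background on at least 4 of these 8 arrays. They number 30991 of 41174 probes and represent 20813 of the 27938 genes on the array. All the mice were C57BL/6, female and ApoE deficient, were ovariectomized at 4 to 5 weeks of age and were fed a high-fat Western-type diet, so both groups share the deleted gene, the missing ovaries and the diet. A subcutaneous pellet made to release NET-A or placebo over 90 days was implanted later. After 78 to 90 days the aorta between the arch and the renal branches was taken and snap-frozen. The labels give no dose, and no group with ovaries was included. Nothing in the labels says that the numbered samples of a group came from separate animals, and the p-values cover only the spread between samples as deposited. The other 8 samples form a parallel experiment with medroxyprogesterone acetate (MPA), a progestin of the pregnane class, and a placebo group of its own.

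Progestins act through the progesterone receptor, a nuclear receptor that binds DNA and changes transcription. MPA also binds the glucocorticoid receptor. ApoE clears remnant lipoproteins from plasma, and mice that lack it form plaques in which macrophages loaded with lipid lie under the endothelium. The aortic wall itself consists mainly of smooth muscle cells, elastic fibres and collagen.

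The one-colour Agilent arrays held 45018 spots each. Of the spots without control function, 62.3% to 78.5% were well above background, with a mean of 73.3% ± 7.51 (SD, n = 4) for NET-A and 72.6% ± 5.64 (SD, n = 4) for placebo. These means differed by less than the spread between arrays (two-sided exact permutation test, p = 0.886, the smallest possible being 0.0286). No spot was saturated. Each slide held as many NET-A as placebo arrays: slide 3 held replicate 1 of both groups, slide 4 NET-A replicate 3 and placebo replicate 2, and slide 5 the remaining 4 arrays. Every level below is a log2 signal relative to the 75th percentile of its own array, so that 0 is the signal at that percentile, and the values of a group are listed in the order of its replicates 1 to 4. A difference is the NET-A mean minus the placebo mean on this log2 scale ± standard error, with 4 arrays in each group.

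Markers of the tissue fitted the label. The smooth muscle genes Acta2, Myh11, Tagln, Cnn1 and Myocd were well above background on all 8 arrays, with mean levels of 6.90 to 7.39 in placebo and 6.90 to 7.27 in NET-A. Endothelial markers averaged 1.44 to 1.77 in placebo and 1.15 to 2.32 in NET-A. Brown adipocyte markers averaged 4.61 to 5.23 and 2.96 to 6.14 in the same order, with the wider range among the NET-A arrays. Several arrays stood apart in markers of other cells. Placebo replicate 4 had a mean macrophage marker level of 1.80, against 0.39 to 0.87 in the other placebo arrays and 0.18 to 0.58 in NET-A. NET-A replicate 1 had the highest neutrophil markers, at 0.54 against -1.25 to -0.13 in the other NET-A arrays and -1.85 to -0.92 in placebo. In NET-A replicate 2 the atrial gene Myl7 read 1.56, against -6.05 to -2.94 in the other NET-A arrays and -6.72 to -4.39 in placebo, and Myh6, a heart myosin, was well above background there and on no other array. In these bulk samples, fewer cells of a type and less RNA per cell cannot be told apart.

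No probe differed between NET-A and placebo after adjustment over the 30991 probes tested with limma (0% called, smallest adjusted p = 0.425), and none did in any of the 21 alternative settings. At unadjusted p under 0.05 limma called 2043 probes (6.59%), 734 higher (2.37%) and 1309 lower (4.22%) in NET-A. Of all probes, 1260 (4.07%) had 4 NET-A values that did not overlap with the 4 placebo values, 466 higher (1.5%) and 794 lower (2.56%). Higher probes made up 35.9% of those at unadjusted p under 0.05, but 56.5% after quantile normalization, 56.9% in the deposited series table and 31.2% after normexp background correction, which lowered the median difference of all probes from -0.03 to -0.19. List medians given below after normexp correction are to be read beside that lowered median. Counts of genes use 1 probe each. At unadjusted p under 0.05 these were 531 higher (2.55%) and 749 lower (3.6%) of 20813, with 329 (1.58%) and 461 (2.21%) not overlapping, 9553 (45.9%) above 0 and 11260 (54.1%) below 0, and a median of -0.02. Since nothing passed the adjusted threshold, the descriptions that follow give levels and spread, and a gene that stood higher or lower did so in these arrays without passing it.

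Among genes whose groups did not overlap, Kcnk1 had the smallest p on the higher side. Its levels were -4.56, -4.54, -4.36 and -4.22 in placebo and -2.73, -2.18, -1.58 and -2.47 in NET-A. All NET-A arrays lay above all placebo arrays, by 2.18 ± 0.24 or 4.52-fold (limma, unadjusted p = 1.4e-05, adjusted p = 0.43). The probe was dim in placebo. It was well above background on every array, but placebo replicates 1 and 2 lay close to the lowest such signal of their arrays, -4.59 and -4.57. Kcnk1 encodes a potassium leak channel, and its probe lies at chr8:128554281-128554340 (mm9). After normexp correction the difference was 0.61, the smallest of its 21 alternatives, and it ranged up to 2.39. Angptl7, at chr4:147869984-147870043, encodes a secreted angiopoietin-like protein. It read -2.28, -2.80, -2.30 and -2.84 in placebo and -1.27, -1.20, -1.22 and -1.13 in NET-A, a difference of 1.35 ± 0.16. The NET-A arrays lay within a narrow band above every placebo array. Its difference was 0.52 after normexp correction. Vipr2, a receptor for vasoactive intestinal peptide, stood 0.74 ± 0.14 higher. Its levels were -0.64, -0.39, -0.49 and -0.26 in placebo and 0.40, 0.38, 0.04 and 0.36 in NET-A, where replicate 3 was the lowest and still above all placebo arrays. Angpt4, a ligand of the endothelial receptor Tek, read -3.13, -3.46, -3.74 and -3.09 in placebo and -2.46, -2.0, -2.37 and -2.25 in NET-A (1.08 ± 0.18), but its other probe differed by 0.13, and after normexp correction it stood at 0.22. The taste receptor subunit Tas1r3 stood 0.69 ± 0.12 higher.

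Of the genes described on the higher side by this rule, 5 are known from blood cells. Treml1, a receptor of platelet granules, read -1.36, -1.91, -1.60 and -0.88 in placebo and -0.06, 0.16, 1.37 and 0.98 in NET-A, 2.05 ± 0.35 or 4.15-fold higher without overlap. Alox12, the platelet lipoxygenase, read -2.02, -2.30, -1.82 and -1.54 in placebo and -1.09, -0.43, 0.29 and -0.17 in NET-A (1.57 ± 0.30), and its other probe gave 1.70. In both genes NET-A replicate 3 was the highest array. After normexp correction Alox12 stood at 0.88. Fech, the ferrochelatase that completes heme, read 1.30, 1.46, 1.94 and 1.57 in placebo and 2.22, 2.62, 3.08 and 3.06 in NET-A (1.18 ± 0.23). Its other probe gave 0.75. Hemgn, a nuclear protein of blood progenitors, stood 2.47 ± 0.47 higher on a dim probe that was well above background on 1 placebo and 3 NET-A arrays. After normexp correction it stood at 0.01, and its other probes gave 0.58 and 1.06. Mmp9, a gelatinase stored by neutrophils, stood 1.25 ± 0.24 higher on this probe, and 0.15 lower after normexp correction. The remaining gene, Tfdp2, encodes a partner of the E2F factors. It read -1.80, -1.81, -1.22 and -1.62 in placebo and -0.92, -0.22, 0.20 and 0.08 in NET-A (1.40 ± 0.26), with 0.51 and 1.25 on its other probes and 0.87 after normexp correction.

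On the lower side, Slurp1 had the smallest p among genes whose groups did not overlap. This secreted protein of the Ly6 family acts on nicotinic receptors, and its probe lies at chr15:74557085-74557144. Its levels were 0.54, 0.35, 0.70 and 0.76 in placebo and -1.32, -1.49, -0.74 and -0.64 in NET-A. Every placebo array lay above the array's 75th percentile and every NET-A array below it, and the difference was -1.63 ± 0.22 (limma, unadjusted p = 5.6e-05, adjusted p = 0.56). Cemip, which takes part in the breakdown of hyaluronan, showed the widest gap of the 12 lower genes on its probe at chr7:91081810-91081869. It read -1.41, -1.01, -1.84 and -0.73 in placebo and -3.44, -5.55, -3.94 and -4.30 in NET-A, -3.06 ± 0.45 or 0.120 times the placebo signal. The probes of Cemip disagreed: another gave -2.51, and the brightest gave -0.34. After normexp correction the first stood at -1.71. Ccr2, the receptor by which monocytes respond to Ccl2, read -1.16, -1.45, -1.51 and -0.66 in placebo and -2.23, -2.31, -2.42 and -2.50 in NET-A (-1.17 ± 0.20). The NET-A arrays lay close together, and the other probe gave -1.02. Thbs1, the matrix glycoprotein thrombospondin, read 0.18, -0.28, -0.52 and 0.04 in placebo and -1.45, -1.55, -0.98 and -1.19 in NET-A (-1.15 ± 0.20), with -0.74 and -0.63 on its other probes.

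Fn1, fibronectin, read 0.28, 0.25, -0.12 and 0.23 in placebo and -0.68, -0.81, -0.69 and -0.61 in NET-A on 1 probe (-0.86 ± 0.13). On its other probes the difference was -0.49 and -0.47, and on the brightest the levels were 3.93, 4.31, 3.5 and 4.21 against 3.66, 3.58, 3.65 and 3.17, which overlap. Fxyd5, a regulator of the sodium pump, read 3.28, 3.26, 3.15 and 3.61 in placebo and 2.60, 2.45, 2.43 and 2.70 in NET-A (-0.78 ± 0.14), with no overlap between the groups. The remaining lower genes were dimmer or unevenly measured. Sned1, a matrix protein, gave -0.95 ± 0.13 on a probe well above background on 2 arrays of each group, and -0.65 to -0.23 on its other probes. The engulfment receptor Megf10 gave -1.11 ± 0.19, Ms4a14 -1.68 ± 0.28, the orphan receptor Gpr176 -1.21 ± 0.23 and the neurotrophic coreceptor Gfra1 -1.19 ± 0.23. Memo1 gave -0.89 ± 0.16 on 1 probe and 0.03 to 0.23 on the others, so its probes disagreed in sign.

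**Figure D1:**
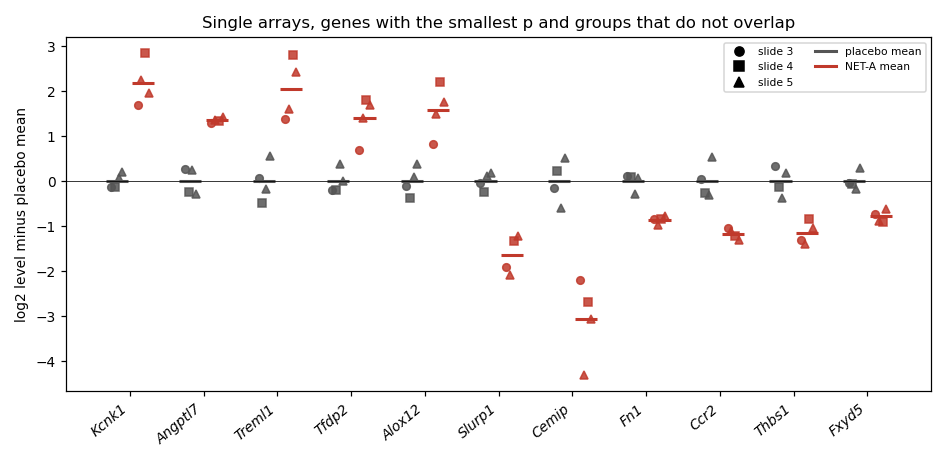
Log2 level of single arrays minus the placebo mean for 11 genes whose groups did not overlap, placebo arrays in grey and NET-A arrays in red, with the slide given by the shape of the point and group means as bars. The NET-A arrays of Angptl7 and Fn1 cluster tightly, while those of Cemip spread from -5.55 to -3.44 in level.

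The platelet and megakaryocyte list stood higher as a group. Of its 31 genes, all tested, 25 lay above 0, where 45.9% of all genes did, and 14 were higher and 0 lower at unadjusted p under 0.05, where 2.55% and 3.6% of all genes were. For 10 of the 31 the groups did not overlap on the higher side, against 1.58% of all genes. The median difference was 0.68 against -0.02 for all genes, and within slides 3, 4 and 5 it was 0.29, 0.84 and 0.58. On all 3 slides 15 of the 31 stood higher, against 14.6% of all genes. Without NET-A replicate 2 the median was 0.50 with 12 genes higher at p under 0.05, without NET-A replicate 1 it was 0.82 with 16, and after normexp correction it was 0.23 with 6.

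By role, surface receptors of platelets stood highest, with 11 of 13 above 0 and a median of 1.01. Gp5, Gp9 and Gp1ba belong to the complex that binds von Willebrand factor. Gp5 read -4.17, -6.15, -4.17 and -3.46 in placebo and -2.98, -2.74, -1.84 and -2.03 in NET-A (2.09 ± 0.55), Gp9 read -1.45, -2.02, -0.81 and -0.12 against -0.01, 0.59, 1.78 and 1.40 (2.04 ± 0.50), and Gp1ba read -3.94, -4.22, -4.20 and -3.19 against -3.08, -2.43, -1.40 and -1.74 (1.72 ± 0.39). Gp5 was well above background on 3 placebo and 4 NET-A arrays, and placebo replicate 2 lay below that array's lowest such signal, -4.57. For Gp5 and Gp9 all NET-A arrays lay above all placebo arrays, although the gap between NET-A replicate 1 and placebo replicate 4 was small for Gp9. For Gp1ba the lowest NET-A array, replicate 1, exceeded placebo replicate 4 by a similar small margin. Itga2b, the fibrinogen receptor subunit, read -3.24, -3.96, -3.27 and -2.23 in placebo and -2.38, -1.23, -0.57 and -0.78 in NET-A (1.93 ± 0.47), with placebo replicate 4 above NET-A replicate 1. Its partner Itgb3, which other cells also express, differed by 0.05 ± 0.19. Clec1b, the podoplanin receptor, gave 1.23 ± 0.48, Gp1bb 0.74 ± 0.20 and P2rx1, an ATP receptor, 0.05.

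Granule contents and enzymes had 9 of 11 above 0 and a median of 0.68. Ppbp, the platelet basic protein, read -1.15, -2.04, -0.40 and 0.17 in placebo and 0.27, 1.45, 1.99 and 1.85 in NET-A, 2.25 ± 0.53 (limma, unadjusted p = 0.0026). NET-A replicate 1 lay just above placebo replicate 4, and the other NET-A arrays lay well above it. Pf4, another granule chemokine, gave 0.70 ± 0.29 with overlapping groups, Nrgn 1.04 ± 0.26, the coagulation factor subunit F13a1 0.02 ± 0.20 and the adhesion receptor Selp -0.21 ± 0.19. The endothelium also makes Selp, and macrophages F13a1. Transcription factors stood closest to 0, with 5 of 7 above 0 and a median of 0.18. Nfe2, which megakaryocytes need to shed platelets, was the exception with -3.46, -3.09, -3.15 and -3.08 in placebo and -2.52, -2.07, -1.01 and -1.32 in NET-A (1.46 ± 0.32, no overlap). Gata1 gave 0.18 and Fli1 -0.22. Slc6a4, the serotonin transporter that platelets carry and a member of the mast cell list, read -4.41, -3.52, -4.25 and -3.48 in placebo and -3.27, -2.14, -1.70 and -2.07 in NET-A, also without overlap. Its probe was well above background on 3 placebo and 4 NET-A arrays. In placebo replicate 4 the platelet markers were the highest of their group, at -0.46 against -2.39 to -1.23, and in NET-A replicate 1 the lowest, also at -0.46.

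The erythroid list, genes of red cell precursors, stood higher too. Of 29 genes on the array 27 were tested, 24 lay above 0, 12 were higher and 0 lower at unadjusted p under 0.05, and 8 did not overlap on the higher side, against 2.55%, 3.6% and 1.58% of all genes. The median was 0.81, and 0.37, 1.35 and 0.48 within slides 3, 4 and 5, with 18 genes higher on all 3 slides. It was 0.48 without NET-A replicate 3, 0.515 without placebo replicate 2, 0.28 after normexp correction and 0.22 over the 20 genes well above background on all 8 arrays. Genes of the red cell membrane stood out, all 10 above 0 with a median of 1.51. Slc4a1, the anion exchanger, read -0.60, 0.28, 0.68 and 0.30 in placebo and 1.20, 1.16, 2.84 and 2.71 in NET-A (1.81 ± 0.46). The blood group proteins Rhd and Kel gave 2.17 ± 0.50 and 1.62, and the membrane skeleton genes Epb42 and Sptb 1.53 ± 0.37 and 1.02 ± 0.30. Ahsp, the chaperone of alpha globin, read -2.39, -1.48, -1.21 and -1.49 in placebo and -0.10, -0.23, 1.65 and 1.03 in NET-A (2.23 ± 0.45). Trim10, a gene of late erythroblasts, read -3.01, -2.35, -2.10 and -2.24 against -1.10, -1.14, 0.60 and -0.09 (1.99 ± 0.41). Both were highest in NET-A replicates 3 and 4 and did not overlap with placebo.

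Globins differed less than the membrane genes. Hba-a1 read 9.75, 10.23, 9.97 and 9.76 in placebo and 10.04, 9.86, 10.06 and 10.16 in NET-A (0.10 ± 0.15), Hba-a2 differed by 0.16 and Hbb-bt by -0.04 ± 0.17. The globin copies are near-identical, so their probes cannot be told apart with certainty. The groups overlapped for all 3. For heme synthesis 5 of 7 lay above 0 with a median of 0.18. Alas2, its first enzyme in red cells, read 4.52, 5.38, 5.87 and 5.41 in placebo and 5.86, 6.30, 7.06 and 6.86 in NET-A (1.22 ± 0.35), where placebo replicate 3 reached NET-A replicate 1. The regulators Klf1 and Tal1 each gave 0.12 and the transferrin receptor Tfrc 0.09. Erythroid markers averaged 1.59 to 2.68 in placebo and 3.07 to 4.26 in NET-A. The part of blood remaining in the segment in these values was not tested.

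Megakaryocytes and red cell precursors share the transcription factor GATA1, which binds the letters GATA with flanking A or T. The windows of 250 bases before the start of 6 genes that stood higher are printed here to show where these letters lie (RefSeq, GRCm38.p6, 5′ to 3′ along the gene). They were chosen because their windows hold the letters: the 3 such genes with the smallest p in the erythroid and in the platelet list. Platelet genes with a smaller p than Clec1b but without a match, such as Treml1, Alox12, Ppbp, Itga2b and Gp9, are not printed. Capitals mark AGATAA or TGATAA on either strand, which reads TTATCT or TTATCA on the other.

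Trim10: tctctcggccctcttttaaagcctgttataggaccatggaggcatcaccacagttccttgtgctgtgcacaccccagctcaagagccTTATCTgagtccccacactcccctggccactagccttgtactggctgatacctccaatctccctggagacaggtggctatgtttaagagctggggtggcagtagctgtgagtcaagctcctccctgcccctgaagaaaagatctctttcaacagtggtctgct
Rhd: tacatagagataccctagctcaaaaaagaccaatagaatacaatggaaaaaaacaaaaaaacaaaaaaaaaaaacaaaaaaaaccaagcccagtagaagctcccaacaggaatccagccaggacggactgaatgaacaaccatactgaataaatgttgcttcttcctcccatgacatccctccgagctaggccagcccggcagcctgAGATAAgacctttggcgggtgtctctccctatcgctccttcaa
Epb42: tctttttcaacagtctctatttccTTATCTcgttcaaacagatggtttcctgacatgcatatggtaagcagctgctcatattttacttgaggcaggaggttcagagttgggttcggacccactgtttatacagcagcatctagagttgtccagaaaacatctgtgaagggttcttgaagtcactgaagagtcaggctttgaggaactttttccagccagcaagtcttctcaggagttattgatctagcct
Gp1ba: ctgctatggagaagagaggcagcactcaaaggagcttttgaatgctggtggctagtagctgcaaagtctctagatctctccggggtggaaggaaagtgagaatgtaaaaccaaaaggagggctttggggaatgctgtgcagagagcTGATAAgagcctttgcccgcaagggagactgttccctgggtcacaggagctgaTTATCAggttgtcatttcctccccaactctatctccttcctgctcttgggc
Gp5: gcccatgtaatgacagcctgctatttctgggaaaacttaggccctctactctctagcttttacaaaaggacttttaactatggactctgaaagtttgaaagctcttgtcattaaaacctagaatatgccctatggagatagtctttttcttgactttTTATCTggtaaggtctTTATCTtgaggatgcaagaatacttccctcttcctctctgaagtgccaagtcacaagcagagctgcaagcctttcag
Clec1b: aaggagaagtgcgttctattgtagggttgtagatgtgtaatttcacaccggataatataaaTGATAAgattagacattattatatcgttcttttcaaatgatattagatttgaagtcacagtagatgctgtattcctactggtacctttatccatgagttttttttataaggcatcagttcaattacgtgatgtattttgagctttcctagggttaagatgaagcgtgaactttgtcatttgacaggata

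Trim10 lies on the plus strand, its window at chr17:36869324-36869573, with the match ending 158 bases before the start. Rhd (chr4:134864286-134864535, plus strand) has its match 38 bases before the start and Epb42 (chr2:121036878-121037127, minus strand) 221 bases before. Gp1ba (chr11:70638872-70639121, plus strand) has 2 matches, 99 and 46 bases before the start, Gp5 (chr16:30310782-30311031, minus strand) 2 matches at 88 and 72 bases, and Clec1b (chr6:129397047-129397296, plus strand) 1 at 184 bases. Of all 27025 windows of this length 17% held the letters. Of the 17 erythroid genes that matched a window 11 did (64.7%), and of the 26 platelet genes 8 (30.8%), against 2 of 23 macrophage genes (8.7%) and 6 of 33 chemokine and cytokine genes (18.2%). The median difference was 0.83 (-0.05 to 2.17) for the 11 erythroid genes with the letters and 0.14 (-0.04 to 1.02) for the 6 without them. In the platelet list it was 0.71 (-0.30 to 2.09) for the 8 with them and 0.57 (-0.35 to 2.25) for the 18 without. In both lists the ranges overlapped. A match is a description of the letters in a window.

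**Figure D2:**
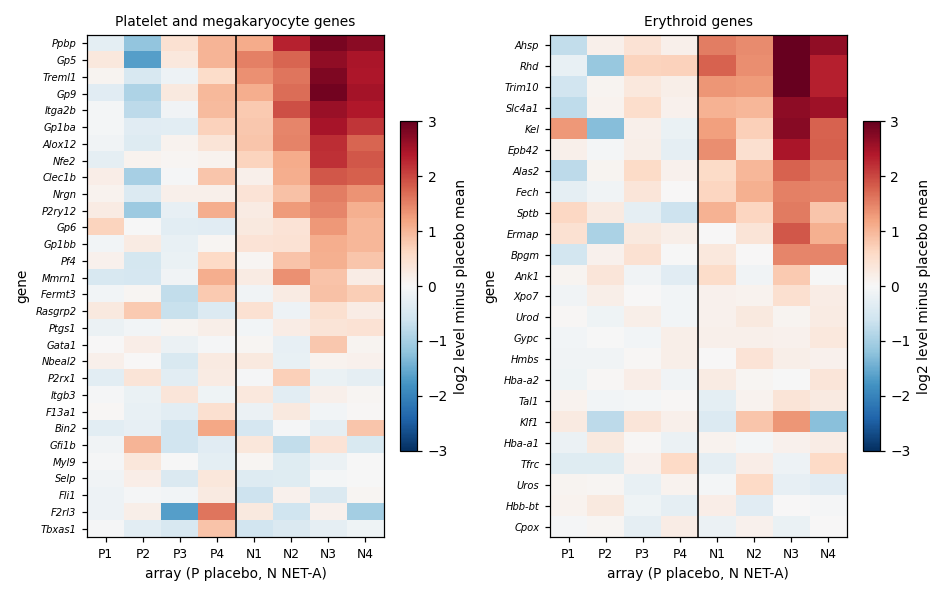
Log2 level minus the placebo mean for the tested genes of the platelet and megakaryocyte list and the erythroid list that are reported here, 1 row per gene sorted by difference and 1 column per array (P placebo, N NET-A, replicates 1 to 4), red higher and blue lower, clipped at 3. NET-A arrays 3 and 4 are the reddest, and the rows of Hba-a1 and Hbb-bt are pale throughout.

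Of the neutrophil list 24 of 28 genes were tested, and 16 lay above 0. At unadjusted p under 0.05, 7 were higher and 1 lower, against 2.55% and 3.6% of all genes, and the median was 0.49. That median was 1.34 on slide 3, which holds NET-A replicate 1, and 0.17 and 0.05 on slides 4 and 5. It was 0.27 with 5 higher without NET-A replicate 1, and -0.31 with 6 genes above 0 after normexp correction, which also lowered the median of all probes. S100a9, a calcium-binding protein abundant in neutrophils, read 1.17, 1.74, 1.5 and 1.94 in placebo and 3.82, 2.20, 2.28 and 3.04 in NET-A (1.25 ± 0.36, no overlap). Its partner S100a8 read -0.60, -0.14, -0.31 and 0.21 against 1.54, 0.20, -0.04 and 1.22 (0.94 ± 0.37), with overlap. The formyl peptide receptor Fpr1 gave 1.32 ± 0.45 and Retnlg 1.19 ± 0.40. Lcn2, which other cells also make when stimulated, ran the other way at -1.27 ± 0.51.

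The macrophage and foam cell list stood lower. Only 2 of its 32 genes lay above 0, 7 were lower and 0 higher at unadjusted p under 0.05, and 2 did not overlap on the lower side. Of all genes 45.9% lay above 0, 3.6% were lower and 2.55% higher at that p, and 2.21% did not overlap on the lower side. The median was -0.54, and -0.59, -0.33 and -0.57 within slides 3, 4 and 5, with 22 genes lower on all 3 slides, against 17.5% of all genes. Placebo replicate 4 weighed on this list: without it the median was -0.24, 7 of 32 lay above 0 and 3 were lower at p under 0.05. There were 4 lower without placebo replicate 1, NET-A replicate 2 or NET-A replicate 3. Macrophage markers were highest in that array, and their part in the result was not tested. Olr1, a scavenger receptor for oxidized LDL, read -3.72, -3.82, -3.84 and -3.05 in placebo and -4.88, -5.49, -6.85 and -5.49 in NET-A (-2.07 ± 0.40; limma, unadjusted p = 0.00074). All NET-A arrays lay below all placebo arrays, and the probe was well above background on 4 placebo and 2 NET-A arrays. Adgre1, an adhesion receptor that marks mouse macrophages, read 1.54, 1.17, 1.05 and 2.40 in placebo and 0.76, 0.75, 0.45 and 0.89 in NET-A (-0.83 ± 0.29), also without overlap. The Fc receptor Fcgr1 read 1.18, 0.84, 0.50 and 2.04 against 0.17, -0.44, -0.11 and 0.54 (-1.10 ± 0.35), with overlap by NET-A replicate 4. Cd68, a lysosomal glycoprotein, read 1.90, 1.53, 1.26 and 2.99 against 0.97, 1.08, 1.05 and 1.84 (-0.68 ± 0.38). The lipid-sensing receptor Trem2 gave -0.90 ± 0.37 and osteopontin, Spp1, -1.29 ± 0.54. Csf1r, the growth factor receptor of the lineage, differed by -0.16 and lysozyme, Lyz2, by -0.34.

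The chemokine and cytokine list stood lower in parallel. Of 42 genes tested of 45 on the array, 6 lay above 0, 13 were lower and 0 higher at unadjusted p under 0.05, and 6 did not overlap on the lower side, against 3.6% lower and 2.21% without overlap among all genes. The median was -0.49, and -0.36, -0.62 and -0.47 within the slides. Without placebo replicate 4 the median was -0.28, 9 lay above 0 and 10 were lower at p under 0.05. By role, 2 of 23 chemokines lay above 0 (median -0.66), 2 of 7 receptors (-0.61) and 2 of 12 cytokines (-0.24). Ccl2, the monocyte attractant that Ccr2 binds, read 0.83, 1.18, 0.57 and 2.45 in placebo and 0.53, -0.46, 0.02 and 0.55 in NET-A (-1.10 ± 0.42). NET-A replicates 1 and 4 lay just below placebo replicate 3, so the groups did not overlap, and placebo replicate 4 stood far above the rest. Ccl8, another ligand of monocyte receptors, read 2.17, 1.76, 1.79 and 3.60 against 0.85, 0.83, 0.30 and 1.72 (-1.41 ± 0.46), without overlap. Cxcl1, a neutrophil attractant, read -0.39, 0.15, 0.59 and 0.77 against -0.86, -1.54, -1.52 and -0.43 (-1.37 ± 0.33), also without overlap. Placebo replicate 4 was again the highest for both. Ccl19, which guides lymphocytes and dendritic cells, read 4.09, 4.29, 3.88 and 4.81 against 3.63, 3.54, 3.30 and 3.88 (-0.68 ± 0.22), where placebo replicate 3 and NET-A replicate 4 met. Cxcl2 gave -1.01 ± 0.28, Ccl12 -1.38 and the cytokine Il6 -1.46 ± 0.53. Tnf gave -0.31, Il1b -0.37 and the fractalkine receptor Cx3cr1 -0.72.

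**Figure D3:**
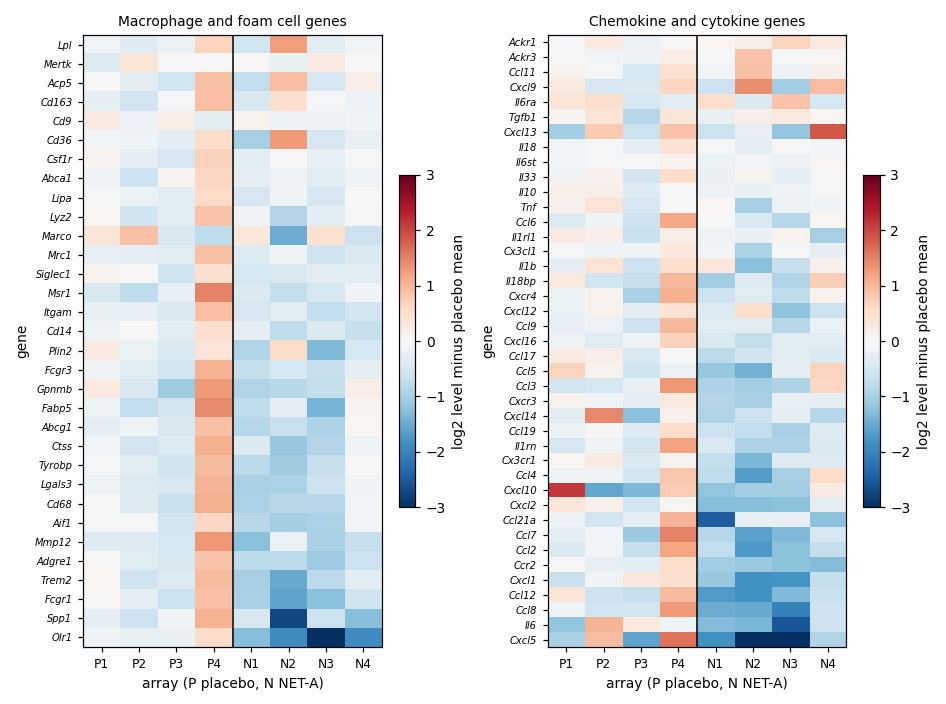
Log2 level minus the placebo mean for the tested genes of the macrophage and foam cell list and the chemokine and cytokine list that are reported here, with rows, columns and colours as in the plot of platelet and erythroid genes. Placebo array 4 is red for most macrophage genes, and the NET-A arrays are mostly blue, with 2 of 32 and 6 of 42 genes above 0 in the difference.

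Adhesion molecules, by which leukocytes are held at the vessel wall, had 6 of 18 genes above 0, 2 lower at unadjusted p under 0.05 and a median of -0.21, where 45.9% of all genes lay above 0 and 3.6% were lower. Without placebo replicate 4 the median was -0.047 and 8 of 18 lay above 0, and without NET-A replicate 4 there were 4 lower. Vcam1, which binds monocytes and lymphocytes, read 3.88, 3.71, 3.61 and 4.53 in placebo and 3.16, 3.01, 2.86 and 3.5 in NET-A, -0.80 ± 0.23. Its groups did not overlap. The integrin Itgax of myeloid cells gave -1.05 ± 0.34. Of 9 MHC class II genes, which present antigen, 0 lay above 0 and the median was -0.49, but the slides gave -1.21, -0.77 and 0.05. The median was -0.30 without NET-A replicate 1, -0.76 without placebo replicate 3 and -0.80 without NET-A replicate 4. T cell genes had a median of -0.18, which ranged from -0.48 to 0.07 when single arrays were left out.

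Interferon response genes lay mostly below 0. Of 24 tested 5 lay above 0, and 1 was higher and 9 were lower at unadjusted p under 0.05. Of all genes 45.9% lay above 0, 2.55% were higher and 3.6% lower at that p. The median of the list was -0.44, with -0.67, -0.74 and -0.08 on slides 3, 4 and 5. The number lower was 3 without placebo replicate 1, 4 without NET-A replicate 3 and 5 without NET-A replicate 2 or placebo replicate 4, and the median was -0.67 without NET-A replicate 4. Oas2, an antiviral synthetase, read -1.41, -1.0, -1.84 and -0.25 in placebo and -2.18, -1.97, -2.30 and -2.18 in NET-A (-1.03 ± 0.31), below all placebo arrays. Mx2 gave -0.82 ± 0.21, Oasl1 -1.17 and Ifit1 -0.94. Rsad2, viperin, stood on the other side with 1.47, 1.67, 2.29 and 2.11 in placebo and 2.43, 2.50, 3.39 and 3.61 in NET-A (1.1 ± 0.32, no overlap), and its other probes gave 1.05 to 1.24.

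The receptors that bind NET-A and related steroids had no common direction. Pgr, the progesterone receptor, read -3.12, -3.34, -3.41 and -3.67 in placebo and -3.56, -3.60, -2.62 and -3.10 in NET-A (0.16 ± 0.24), a dim probe with overlapping groups, and its other probe gave -0.74. Esr1, the estrogen receptor alpha, gave 0.52 ± 0.23 (limma, unadjusted p = 0.050), with -0.17 on its other probe. Nr3c1, the glucocorticoid receptor, gave 0.22 ± 0.15 and Nr3c2, the mineralocorticoid receptor, -0.31 ± 0.18. The membrane-associated Pgrmc1 and Pgrmc2 gave 0.14 ± 0.13 and 0.03 ± 0.12, Gper1 -0.24 ± 0.37, Paqr5 -0.27 ± 0.54, Paqr7 -0.01 and Paqr8 -0.02. Esr2 was well above background on 1 array of each group and was not tested. Over the 11 receptors tested 6 lay above 0 and the median was 0.03. Apoe, the gene the mice lack in function, still gave signal at 0.30, 0.70, 0.55 and 0.95 in placebo and 0.28, 0.07, 0.75 and 0.81 in NET-A (-0.15 ± 0.22). Its probe may lie outside the deleted part and does not check the genotype.

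Genes known to respond to progestins, androgens or estrogens had 17 of 27 above 0, 3 higher at unadjusted p under 0.05 and a median of 0.09. Of all genes 45.9% lay above 0 and 2.55% were higher at that p. Stc1, stanniocalcin, a secreted glycoprotein hormone, read -3.51, -2.95, -2.94 and -3.44 in placebo and -2.16, -2.11, -1.37 and -2.68 in NET-A (1.13 ± 0.28; limma, unadjusted p = 0.0033). All NET-A arrays lay above all placebo arrays. Klk1, tissue kallikrein, gave 1.39 ± 0.45 and Smox, a polyamine oxidase, 0.79 ± 0.25. Among 16 genes of steroid metabolism the median was 0.05. Akr1c14, a hydroxysteroid dehydrogenase, read -0.61, -0.56, -0.31 and -0.78 against 0.26, 0.31, 1.45 and -0.20 (1.02 ± 0.32, no overlap), and Hsd11b1, which regenerates active glucocorticoid, gave 0.46 ± 0.18.

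Glucocorticoid response genes had 18 of 24 above 0, 5 higher and 1 lower at unadjusted p under 0.05, and a median of 0.33. Of all genes 45.9% lay above 0, 2.55% were higher and 3.6% lower at that p. On slides 3, 4 and 5 the medians were -0.14, 0.64 and 0.48, and 2 genes were higher at p under 0.05 without NET-A replicate 3, NET-A replicate 4 or placebo replicate 3, 3 without placebo replicate 2 and 8 without NET-A replicate 1. Ddit4, an inhibitor of growth signalling, read 2.83, 2.62, 2.53 and 2.75 in placebo and 3.20, 3.31, 3.08 and 3.20 in NET-A (0.51 ± 0.12, no overlap). Errfi1, an inhibitor of the EGF receptor, read 3.18, 2.69, 2.27 and 3.06 against 3.03, 3.60, 4.36 and 3.64 (0.86 ± 0.30), and the kinase gene Sgk1 3.5, 3.46, 2.92 and 3.55 against 3.32, 3.81, 4.22 and 4.12 (0.51). For Errfi1 and Sgk1 NET-A replicate 1 lay among the placebo arrays and the other 3 above them. Klf9 gave 0.46 ± 0.16, Klf15 0.46 ± 0.18, Tsc22d3 0.58 ± 0.46 and Fkbp5, a chaperone of steroid receptors, 0.95 ± 0.75. Among the genes below 0, Lcn2 gave -1.27 ± 0.51, the largest difference of the list. Mt2 gave -0.32 ± 0.19 and Hif3a -0.49 ± 0.28, with 0.49 on the other probe of Hif3a.

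The same list lay below 0 in the MPA experiment, with a median of -0.53. The difference of the responses, NET-A minus its placebo less MPA minus its placebo, had a median of 0.66 over the 24 genes. At unadjusted p under 0.05 limma called 9 of the 24 higher and 0 lower in this difference, where 361 (2.4%) and 649 (4.32%) of 15022 genes were. Errfi1 stood at -0.73 for MPA, a difference of 1.59 ± 0.40 (limma, unadjusted p = 0.0011, adjusted p = 0.31), Ddit4 at -0.62, a difference of 1.13 ± 0.30 (limma, unadjusted p = 0.0018, adjusted p = 0.34), and Sgk1 at -0.84, a difference of 1.35 ± 0.31 (limma, unadjusted p = 0.00059, adjusted p = 0.27). Tsc22d3 stood at -1.16 for MPA. The experiments used different slides and versions of the scanner software, so progestin and experiment cannot be told apart.

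**Figure D4:**
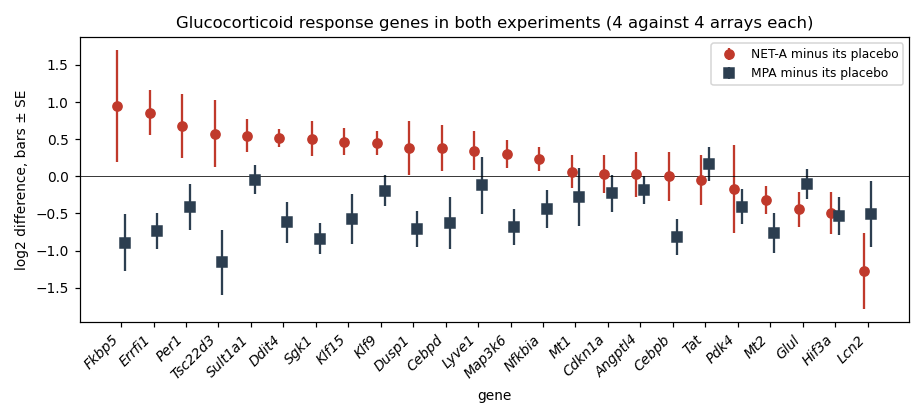
Log2 difference of each progestin from its own placebo for 24 glucocorticoid response genes, NET-A as red circles and MPA as dark squares, bars showing the standard error, 4 arrays in each group. Most NET-A points lie above 0 (18 of 24), and the MPA points of genes such as Fkbp5, Errfi1, Sgk1 and Tsc22d3 lie below.

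Over all probes, 0 of 22173 (0%) differed between the responses after adjustment (limma, smallest adjusted p = 0.18), and 1907 (8.6%) did at unadjusted p under 0.05, 544 of them higher (2.45%). The smallest p belonged to Leng8, which gave -0.72 ± 0.17 for NET-A and 0.91 for MPA, a difference of -1.63 (limma, unadjusted p = 1.3e-05, adjusted p = 0.18). Srsf3, a splicing factor, gave -0.43 for NET-A and 1.06 for MPA, and Ogt, which attaches N-acetylglucosamine to proteins, -0.72 and 0.75. Dync1h1, the dynein heavy chain, gave -0.48 and 0.84, Fcho2, an endocytic protein, -0.47 and 0.51, and the G protein subunit Gnb4 -0.54 and 0.75. In these 6 genes NET-A lay below 0 and MPA above. On the other side Fam107a gave 1.33 ± 0.40 for NET-A and -0.94 for MPA, Camta1 0.83 and -1.18, Yipf7 0.10 and -1.86, and the non-coding RNA H19 0.48 and -1.69. Camsap2 gave 0.43 and -6.50 on a probe well above background on 2 placebo and 4 NET-A arrays, with -0.23 and -0.04 for NET-A on its other probes. Most of its difference came from the MPA experiment, whose background calls for this probe are not given here. The lowest signals well above background on the arrays of that experiment were -4.28 to -2.51, so a drop of this size may reach the floor. Without NET-A replicate 1, Fam107a and Camsap2 passed the adjusted threshold for the difference of the responses, at 2.70 ± 0.32 (limma adjusted p = 0.0052) and 6.34 ± 0.40 (limma adjusted p = 0.0030). Angptl7 gave 0.08 for MPA, which left a difference of 1.27 (limma, unadjusted p = 0.0026), and Fn1 0.36, which left -1.21 (limma, unadjusted p = 0.0017). Slurp1 gave -0.27 and Cemip -1.0 for MPA. For the 27 platelet genes measured in both experiments the median was 0.74 for NET-A and 0.34 for MPA, and for 31 macrophage genes -0.54 and -0.53. Nr3c2 gave 1.16 for MPA, a difference of -1.47 (limma, unadjusted p = 0.0022).

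Genes of coagulation and fibrinolysis had no common direction, with 19 of 35 above 0, 3 higher and 2 lower at unadjusted p under 0.05 and a median of 0.03. Of all genes 45.9% lay above 0, 2.55% were higher and 3.6% lower at that p. F3, tissue factor, which starts coagulation, read 2.62, 2.40, 1.95 and 2.66 in placebo and 3.10, 2.95, 2.70 and 2.69 in NET-A (0.45 ± 0.19), just without overlap. Plau, urokinase, read -2.22, -2.16, -2.97 and -1.70 against -3.0, -3.10, -3.11 and -3.14 (-0.83 ± 0.25), with NET-A arrays below all placebo arrays, and its receptor Plaur gave -0.43 ± 0.18. F5, a factor that platelets also store, gave 1.67 ± 0.50. Plg gave 1.16 ± 0.25 on a probe well above background on 1 placebo and 3 NET-A arrays. Thbd, thrombomodulin, gave -0.01 ± 0.11. Of 21 complement genes 5 lay above 0, with a median of -0.26, and 1 was higher and 2 lower at unadjusted p under 0.05. Without placebo replicate 4 the median was -0.092 and 9 lay above 0, without NET-A replicate 4 it was -0.16, without placebo replicate 3 it was -0.38 with 6 lower, and on slide 3 alone it was 0.01. C7, 1 of the 5 above 0, read -4.02, -4.45, -2.74 and -2.56 in placebo and -2.26, -1.62, -0.69 and -1.60 in NET-A (1.90 ± 0.49, no overlap). Its probe was well above background on 3 placebo and 4 NET-A arrays. The receptor C3ar1 gave -0.64 ± 0.25.

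In the wall itself, the contractile smooth muscle list had 14 of 22 genes above 0, 0 at unadjusted p under 0.05 in limma and a median of 0.08, and the endothelial list 16 of 22 and 0.09. Among all genes 45.9% lay above 0, 2.55% were higher and 3.6% lower at that p, and 1.58% and 2.21% did not overlap on the higher and lower side. Collagens had a median of -0.07, and matrix glycoproteins 14 of 38 above 0 with a median of -0.08. Of the fibrillar and associated collagens only Col5a1 lay above 0, at 0.001. Col1a1 gave -0.29 ± 0.21 and Col3a1 -0.27 ± 0.18, but 0.15 and 0.24 on slide 3. Their other probes gave -0.84 to -0.23 and -1.49 to -0.45. Single matrix genes stood apart. Ltbp2, which binds microfibrils, read 4.19, 4.48, 4.42 and 4.95 in placebo and 3.85, 3.16, 3.94 and 3.85 in NET-A (-0.81 ± 0.23). Lum, the proteoglycan lumican, read 5.25, 5.19, 5.65 and 6.46 against 4.99, 4.86, 4.59 and 4.89 (-0.80 ± 0.28). Neither overlapped, and placebo replicate 4 was the highest for both. Elastin, Eln, gave 0.05 and fibrillin, Fbn1, 0.01. Mgp, an inhibitor of vessel calcification, read 9.03, 8.92, 8.96 and 8.87 in placebo and 8.77, 8.51, 8.22 and 8.64 in NET-A (-0.41 ± 0.14), and Alpl, an alkaline phosphatase that favours mineral deposition, gave 0.51 ± 0.18. Both were without overlap. Of the protease list 7 of 27 lay above 0 with a median of -0.20, which was -0.09 without placebo replicate 4, -0.31 without placebo replicate 3 and 0.02 on slide 3 alone. Timp4, an inhibitor of metalloproteinases, read -0.43, 0.19, -0.33 and -0.06 against 0.29, 1.05, 0.44 and 0.49 (0.72 ± 0.21, no overlap), and Timp1 gave -1.06 ± 0.43. Ptgfr, the receptor of prostaglandin F, which contracts smooth muscle, read -4.07, -3.91, -3.48 and -3.97 against -3.14, -3.29, -2.83 and -3.14 (0.75 ± 0.17, no overlap). The bradykinin receptor Bdkrb2 gave 0.88 ± 0.28 and Ddah1, which degrades an inhibitor of nitric oxide synthesis, -0.58 ± 0.22.

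Heat shock genes had 3 of 16 above 0 and a median of -0.13, with 4 lower at unadjusted p under 0.05 that did not overlap. Of all genes 45.9% lay above 0, 3.6% were lower at that p and 2.21% did not overlap on the lower side. Hspa5, the chaperone of the endoplasmic reticulum, read 5.32, 5.26, 5.06 and 5.17 in placebo and 4.44, 4.72, 4.30 and 4.62 in NET-A (-0.68 ± 0.14; limma, unadjusted p = 0.00087). Hsph1 read 4.24, 4.38, 4.42 and 4.48 against 3.81, 3.86, 3.84 and 3.65 (-0.59 ± 0.12). In both, all NET-A arrays lay below all placebo arrays. Hspa8 gave -0.49 ± 0.20 and Hsp90aa1 -0.36 ± 0.13. Without NET-A replicate 1 the list's median was -0.05, 7 of 16 lay above 0 and 2 were lower at p under 0.05, and without placebo replicate 3 the median was -0.31. Cell cycle genes had 2 of 26 above 0 and a median of -0.29, which was -0.18 without placebo replicate 4. At unadjusted p under 0.05, 2 were lower over all arrays and 7 without placebo replicate 3. The 2 genes above 0, Nusap1 and Ube2c, gave 0.83 and 0.70 and were both higher at that p over all arrays. Among all genes 2.55% were higher and 3.6% lower. The mitotic cyclin Ccnb1 gave -0.94 ± 0.31 without overlap and Mki67 -0.47. Lipid genes stood apart singly. Vldlr, a receptor that takes up lipoproteins rich in triglyceride, read 3.28, 3.39, 3.44 and 2.95 in placebo and 3.83, 3.71, 4.57 and 3.85 in NET-A (0.73 ± 0.21, no overlap), and Fads1, a fatty acid desaturase, gave 0.48 ± 0.14.

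Lists of tissues beside the wall differed in how far single arrays moved them. Skeletal muscle genes had 23 of 29 above 0, 5 higher at unadjusted p under 0.05 and a median of 0.24, and 17 of 19 contractile genes lay above 0. Of all genes 45.9% lay above 0 and 2.55% were higher at that p. Mylpf, a light chain of fast fibres, read -3.62, -3.32, -3.17 and -3.55 in placebo and -1.93, -2.23, -1.92 and -2.98 in NET-A (1.15 ± 0.25, no overlap), and Tnnt3 gave 1.60 ± 0.45. After normexp correction the list's median was 0.07 with 1 gene higher. All 9 cardiomyocyte genes tested lay above 0, with a median of 0.77, and 0.20 without NET-A replicate 2. Brown adipocyte genes had a median of -0.24 that ran from -1.48 on slide 3 to 0.42 on slide 5. Lists of metabolism went with it across the slides: oxidative phosphorylation gave -0.61, -0.33 and 0.34, fatty acid oxidation -0.71, -0.39 and 0.47, and lipogenesis -1.22, -0.61 and 0.24 on slides 3, 4 and 5. The part of brown fat in these lists was not tested.

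**Figure D5:**
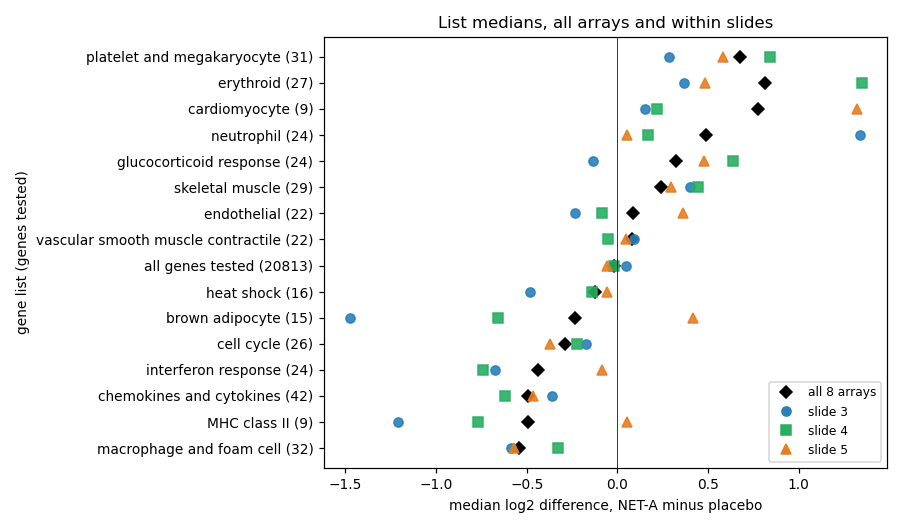
Median log2 difference, NET-A minus placebo, for 15 gene lists and all genes tested (number of genes in brackets), over all 8 arrays as diamonds and within each slide as circles, squares and triangles. Platelet and erythroid lists lie above 0 and macrophage and chemokine lists below 0 on all 3 slides, while brown adipocyte genes run from -1.48 to 0.42.

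Of genes well above background on all 4 arrays of one group and none of the other, Mcf2l and Irx2 were found on the higher side and none on the lower. Mcf2l, a guanine nucleotide exchange factor, read -6.65, -5.32, -6.71 and -5.43 in placebo and -1.53, -4.77, -4.29 and -5.56 in NET-A, at least 2.11-fold higher against the lowest measurable signal of the placebo arrays (limma adjusted p = 0.74) and at least 1.18-fold without NET-A replicate 1. NET-A replicate 4 lay below placebo replicates 2 and 4, so the groups overlapped. Irx2, a homeobox factor, was at least 1.59-fold higher on the same basis (limma adjusted p = 0.78), and without NET-A replicate 1 its NET-A mean of -5.12 lay below the placebo floor of -5.07, which leaves no fold. Both passed the filter only through the NET-A arrays. NET-A replicate 1 stood far above the other arrays for both, at -1.53 and -2.22, and the other probes gave -0.12 and -0.01 for Mcf2l and -0.08 and 0.38 for Irx2.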

How the data were processed

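Transcripts were measured on 16 one-colour Agilent arrays, of which the 8 of the NET-A experiment carry the results. Per the labels, 100 ng of total RNA was labelled with Cy3. Per the file headers, the deposited spot intensity (processed signal) comes from Agilent Feature Extraction 11.0.1.1 (10.7.1.1 for MPA), background-subtracted and not normalized between arrays, with coordinates on mm9. The authors also deposited a series table of log2 values with no account of how it was made. Its columns followed the arrays' log2 signals after quantile normalization and centring on each probe's median (r 1.00, column medians -0.031 to 0.017), so its scale, centring and direction are inferred.

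Of 329392 probe values, 125 marked as outliers by the scanner software were left out. Log2 signal minus the array's 75th percentile was averaged per probe and compared with limma 3.58.1 (lmFit, eBayes, two-sided, Benjamini-Hochberg over all probes, threshold 0.05) in R 4.3.3, which was tested on simulated data. The number of arrays limits the precision. In the lists and gene counts a gene takes the probe with the highest mean over all 16 arrays, and a gene named by its p over all probes is given on the probe that ranked it. Gene names come from RefSeq accessions for 27660 probes and otherwise from the array design. Which part of its gene a probe matches is not stated in the files. Genes were named as follows: the 12 in each direction with the smallest p among clearly named genes whose groups did not overlap; in each of 43 lists the 4 with the smallest p and the largest difference; steroid receptors and Apoe; genes well above background in only one group; and the 6 in each direction with the smallest p for the difference from the MPA response. Other genes were named after their values were seen, to show the members of a list. Members, lists and rules were chosen with earlier results of these data known. An "at least" fold sets the NET-A mean against a floor for each placebo array, which is the dimmest signal there of a probe well above background, or the probe itself where that is brighter. Some genes of the lists are counted in them but are not reported here by name.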

Additional observations from a re-analysis of the deposited data

Results flagged for a closer look

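In 5 of 110 groups of 4 arrays tested, 1 array lay far from the other 3 (gap over range above Dixon's 95% critical value), where the nominal share is 1 in 20. These groups come from the same 8 arrays and include genes named because their groups did not overlap. The count therefore cannot be judged against that share. The kidney markers Umod and Slc34a1 had a mean level of -3.34 in placebo replicate 2, against -5.03 to -4.90 in the other placebo arrays. The smooth muscle markers averaged 6.90 in NET-A replicate 2, against 7.25 to 7.27 in the other NET-A arrays. Among single genes, Fn1 read -0.12 in placebo replicate 3 against 0.23 to 0.28, Vipr2 read 0.041 in NET-A replicate 3 against 0.36 to 0.40, and Ms4a14 read -6.22 in NET-A replicate 1 against -5.22 to -5.01. For Fn1, Vipr2 and Ms4a14 the groups did not overlap with these arrays included.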

How the results depend on the processing

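The count of probes past the adjusted threshold was 0 in all 21 alternatives of the NET-A comparison with limma, with a smallest adjusted p of 0.190 to 0.998. At unadjusted p under 0.05 the main count of 2043 became 1013 after normexp, 1269 with 1 probe per gene and 4528 on slides 3 and 4 alone with slide as a block, and leaving out single arrays gave 1535 to 2558. The replicate numbers do not pair the samples: same-numbered arrays deviated from their group means with correlations of 0.15, -0.31, -0.25 and 0.31, and with the replicate block the count was 1910. The 6 same-slide pairs of arrays deviated together at 0.11 to 0.45, and with slide as a block over all 8 arrays the count was 2851. For the difference from the MPA response, 1 probe passed the adjusted threshold with the replicate block (Sall4, limma adjusted p = 0.020), and 0 to 2 did when single arrays of the NET-A experiment were left out, the 2 being Camsap2 and Fam107a without NET-A replicate 1. The platelet median of 0.68 was 0.23 after normexp and 0.29 on slide 3 alone. The erythroid median of 0.81 was 0.28 after normexp, 0.22 with all 8 arrays well above background, 0.37 on slide 3 alone and 1.35 on slide 4 alone. The interferon median of -0.44 was -0.084 on slide 5 alone. Leaving out single arrays gave platelet medians of 0.50 to 0.82, erythroid 0.48 to 0.98, macrophage -0.69 to -0.24, chemokine and cytokine -0.67 to -0.28 and interferon -0.67 to -0.34. Of the 24 genes named for groups that did not overlap, Mmp9 turned sign, to -0.15 after normexp, and the other 23 kept theirs in every alternative that gave them a value. The causes were not tested. Normexp was run on the median signal, chosen after the files were seen, because these files hold no mean signal, and the planned version on the mean signal was not run. The replicate block for the difference of responses was also added then. Signal over background limits the dim probes: of the 24 named genes, normexp moved 11 by over 1.5 times, among them Ms4a14 to -0.94 and Gfra1 to -0.78, and Hemgn also stood at 1.43 on slide 5 and Mmp9 at 0.82 on slides 3 and 4.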
